A study of Mus musculus with 6 samples.

Results

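The spliceosomal Snrp, Sf3 and Lsm genes were followed in mouse oocytes, as the protein-coding genes of the count table whose symbol begins with Snrp, with Sf3a or Sf3b and a number, or is Lsm and a number alone. The rule took 32 of 54532 genes, and 32 of the 32 passed the filter on low counts that left 18868 genes for testing. Oocytes of C57BL/6J mice, labelled 6 to 7 weeks of age, were sequenced as 3 control and 3 AMH libraries. AMH, or anti-Müllerian hormone, is made by granulosa cells, and its group had recombinant mouse AMH made in E. coli, 300 ng a day into the abdominal cavity beginning at 21 days of age. The labels do not say whether controls were injected, how many oocytes of what stage went into a library, whether cumulus cells were removed, or whether libraries came from separate animals. Replicate spread here may thus be technical, and p-values speak of these libraries only.

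Splicing is done by small nuclear ribonucleoproteins (snRNPs), particles of a U snRNA and proteins. The Sm proteins close into a ring on the U1, U2, U4 and U5 RNAs, the Lsm2 to Lsm8 proteins form a like ring on U6, and SF3A and SF3B hold the U2 particle on the branch point of the intron. With Lsm1 in place of Lsm8 the Lsm ring works in the cytoplasm on mRNA decay. Lsm10 with Lsm11 completes the ring of the U7 particle, which takes part in the cutting of histone mRNAs. A growing oocyte stores mRNA, and a fully grown one no longer transcribes, so the RNA measured here need not follow the amount of protein.

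Levels within a gene are given as CPM, counts scaled to TMM-adjusted library sizes, and levels between genes as the deposited FPKM, which are per length. Fold changes are AMH over control on the log2 scale with a standard error (SE), from edgeR's quasi-likelihood test, and adjusted p is the Benjamini-Hochberg value over all 18868 genes, with a threshold of 0.05. Libraries held 66392859 to 72109080 counts. Control 3 and AMH 3 lay close to each other, with a chi-square of 55.9 per degree of freedom between them, against 66.0 between controls 1 and 2. Oocyte markers were the most abundant marker list in the 6 libraries, with summed levels of 46952, 50365 and 38618 CPM for controls 1, 2 and 3, against 23709, 22754 and 37580 CPM for AMH 1, 2 and 3. The groups did not overlap, AMH 3 lay just below control 3, and for 23 of the 31 oocyte genes all AMH libraries lay below all controls. Summed CPM of 29 cumulus and granulosa markers was 2560, 1422 and 6895 for controls 1, 2 and 3, against 8652, 7734 and 6597 for AMH 1, 2 and 3. Of those 29 markers 8 had every AMH library above every control, 1 had every AMH library below, and 0 were absent from all libraries. The surface and oviduct epithelium list had 29.1 to 178 CPM in controls and 148 to 768 CPM in AMH libraries, and the erythroid list 1.11 to 5.64 and 22.8 to 357 CPM. The immune list had 6.06 to 21.1 and 49.3 to 76.9 CPM, with 6 of 11 genes above in every AMH library, while Ptprc, the defining leukocyte gene, stayed between 0.379 and 2.34 CPM. The theca and stroma list had 4.95 to 34.0 and 10.2 to 37.6 CPM, with Insl3 at 0 counts in all 6 libraries. The endothelial list had 183 to 222 and 105 to 178 CPM, with Emcn at 0 and 3 of 7 genes under 1 CPM everywhere. Most of that sum was 1 gene, Pecam1, with 145 to 187 CPM in controls and 87.5 to 143 CPM in AMH libraries. In such bulk libraries fewer cells of a type and less RNA per cell cannot be told apart.

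The snRNP genes did not move in 1 direction. Snrpd2, Snrpb, Lsm4, Snrpc, Sf3b6 and Lsm8 had at least 2-fold higher mean values in AMH libraries, Lsm11, Sf3b1, Snrpb2, Snrpd1, Sf3a1 and Snrpd3 had lower ones under TMM scaling, and most other members differed little. With libraries scaled to the oocyte marker list the lower group turned positive, and all 32 genes then had positive fold changes. Of the 32 genes 17 had a positive and 15 a negative fold change, with a median of 0.0052 and a range of -0.60 to 1.66. Over all genes tested the median was -0.011, and 9374 were positive and 9494 negative. No member passed the test. EdgeR's adjusted p called 0 of 32 members and 0 of 18868 genes (0% of all genes in either direction), and the smallest adjusted p was 0.116. Unadjusted p lay under 0.05 for 7 members with higher and 5 with lower values, or 21.9% and 15.6% of them, beside 20.2% and 17.3% of all genes tested. In 9 members every AMH library lay above every control and in 5 every one lay below, where 26.9% and 23.3% of all genes did so. These shares of 28.1% and 15.6% of the members are near or below those of the whole table. Fold changes of 1 or more on the log2 scale, in either direction, were found for 18.8% of the members and for 31.8% of all genes.

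**Figure D1:**
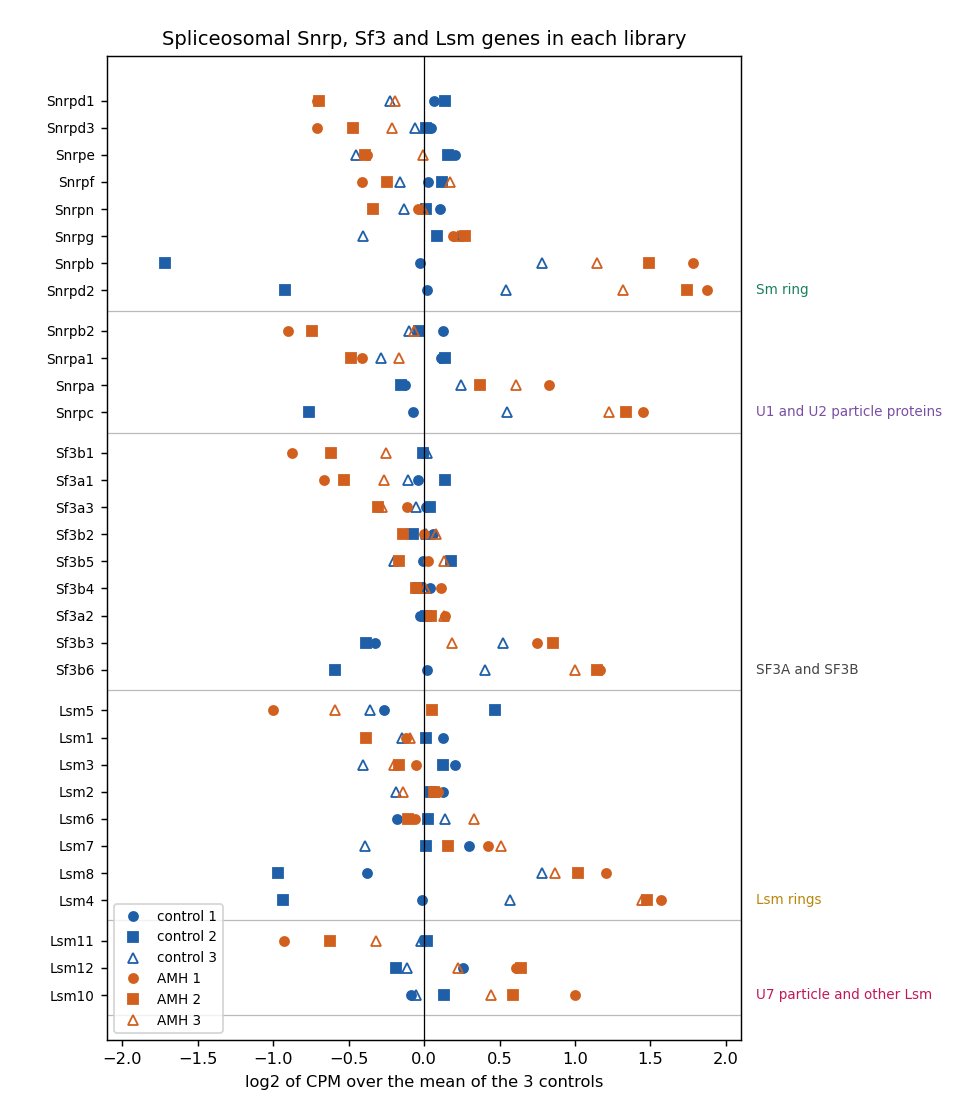
Each row is a gene and each point a library, on an axis of log2 CPM over the mean of the 3 controls, with controls in blue, AMH libraries in orange and open triangles for control 3 and AMH 3. Snrpd2, Lsm4 and Snrpc lie to the right in AMH libraries, Lsm11 and Sf3b1 to the left (to the right with oocyte-list scaling), and the open triangles often lie between the filled symbols of their group and the other group.

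Other tools called part of the same genes. DESeq2 called 6 members higher (Lsm10, Lsm4, Sf3b6, Snrpb, Snrpc and Snrpd2) and 0 lower, beside 15.7% and 5.71% of all genes. Limma-voom and limma on FPKM called 0 members and 0% of all genes. Limma-voom with sample quality weights called 10 members higher and 11 lower, beside 39% and 35.7% of all genes, with a weight of 6.58 for control 1 and 0.250 for AMH 3. Without control 3 edgeR called 8 members higher (Lsm4, Lsm8, Sf3b3, Sf3b6, Snrpa, Snrpb, Snrpc and Snrpd2) and 0 lower, where it called 26.8% and 11.2% of all genes. Without AMH 3 it called 0 higher and 3 lower (Lsm11, Sf3b1 and Snrpb2), beside 1.45% and 6.73%. Without both libraries it called 9 higher and 8 lower, beside 29.4% and 21.6%.

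Scaling moved the counts at an unadjusted p under 0.05 with the share of all genes. With library size only 12 members were higher and 1 lower, beside 27.9% and 6.58% of all genes. Upper-quartile scaling gave 5 and 8, beside 18% and 25.7%, and oocyte-list scaling 18 and 0, beside 37.2% and 0.111%. With the cumulus covariate 5 members were higher (Lsm10, Lsm4, Sf3b6, Snrpd2 and Snrpg) and 0 lower, beside 4.71% and 1.64%.

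Control 3 and AMH 3 lay toward the other group for most members. Control 3 was the control nearest the AMH mean in 23 of 32 members and in 72.2% of all genes tested. AMH 3 was the AMH library nearest the control mean in 21 of 32 members and in 64.9% of all genes. AMH 1 was the highest library for 10 members and the lowest for 8, control 2 the highest for 7 and the lowest for 9, and AMH 3 the lowest for 0.

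In the Sm ring, Snrpd2 and Snrpb had higher values in AMH libraries while the genes of the other subunits had close or lower ones. Snrpd2, the SmD2 subunit (7, 19149722 to 19153542), had 7.92, 4.13 and 11.4 CPM in controls 1, 2 and 3 and 28.7, 26.1 and 19.5 CPM in AMH 1, 2 and 3. The groups did not overlap, and control 3 and AMH 3 were the nearest pair. Its log2 fold change of 1.66 ± 0.40 (SE) was the highest of the 32 genes (edgeR adjusted p = 0.116). Snrpb, which encodes SmB and SmB′ (2, 130171414 to 130179403), is given in full because of its spread, a choice made after its values were seen. It had 32.8, 10.2 and 57.5 CPM in controls and 115, 94.3 and 74.1 CPM in AMH libraries. Control 2 lay lowest and AMH 1 highest, with no overlap, and the fold change was 1.497 ± 0.57 (edgeR adjusted p = 0.122). It was 1.05 without control 2 (adjusted p = 0.171) and 2.13 without control 3 (adjusted p = 0.0258). With summed cumulus marker CPM as a covariate it was 0.32 for Snrpb and 0.88 for Snrpd2.

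Snrpd1, the SmD1 subunit (18, 10617796 to 10628230), went the other way at a high level. It had 111, 116 and 90.4 CPM in controls and 64.6, 65.2 and 92.5 CPM in AMH libraries, so AMH 3 lay above control 3 and the groups overlapped. The fold change was -0.51 ± 0.21 (adjusted p = 0.125). Snrpd3, the SmD3 subunit, had -0.45 ± 0.17, with 139 to 150 CPM in controls and 89.0 to 125 CPM in AMH libraries and no overlap. These directions hold relative to TMM scaling: with scaling to the oocyte marker list the median of all genes shifted from -0.011 to 0.73, and Snrpd1 and Snrpd3 had 0.20 and 0.27.

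The small subunits E, F and G overlapped between groups. Snrpe (1, 133603871 to 133610291) had 96.9, 94.1 and 61.6 CPM in controls and 64.6, 64.1 and 83.7 CPM in AMH libraries, with a fold change of -0.25 ± 0.23. Here control 3 was the lowest library and AMH 3 the highest AMH library. Snrpg (6, 86371304 to 86379328) had 90.0, 80.5 and 57.2 CPM against 86.5, 91.7 and 88.7 CPM, with 0.23 ± 0.20, and control 3 stood alone below the other 5 libraries. Snrpf had -0.14 ± 0.24. Snrpn, the gene of SmN, which takes the place of SmB in neurons, had 13.5 to 15.9 CPM in controls and 11.7 to 14.7 CPM in AMH libraries, with -0.12 ± 0.22.

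In the deposited FPKM Snrpd1 was the highest of all 32 genes in controls, with 121 ± 16.7 FPKM (SD, n = 3). This rests on a deposited length of 837 bases, where the exons in GENCODE M21 cover 2052, and with the longer length it would be 49.4 ± 6.80 FPKM, below Snrpe and Sf3b1. Snrpd2 was the lowest Sm gene of controls, with 2.85 ± 1.30 FPKM. The highest Sm gene stood 43.7, 88.0 and 24.8 times above the lowest for controls 1, 2 and 3, against 11.6, 14.4 and 16.2 times for AMH 1, 2 and 3. The deposited values thus spread more within the ring in every control than in any AMH library. With GENCODE lengths the multiples were 23.3, 43.5 and 10.3 against 8.76, 10.8 and 8.96, and control 3 lay inside the AMH range. Snrpb made up 69.2%, 42.8% and 82.3% of the summed Snrpb and Snrpn FPKM for controls 1, 2 and 3, against 89.7%, 89.8% and 84.6% for AMH 1, 2 and 3. Summed over the ring, FPKM was 313 ± 35.7 in control and 302 ± 16.1 in AMH libraries (SD, n = 3 each), a difference smaller than either SD, and with GENCODE lengths 242 ± 26.8 and 251 ± 6.94, in the other direction.

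**Figure D2:**
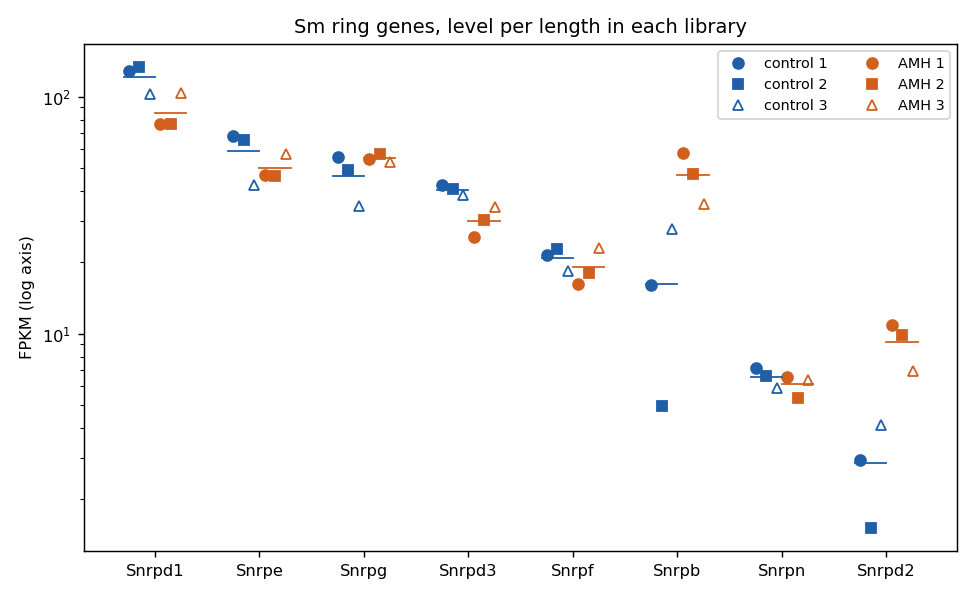
FPKM of the 8 Sm genes on a log axis, a point for each library and short lines for the group means, controls in blue and AMH libraries in orange. Snrpb and Snrpd2 stand apart in that the AMH points lie above the control points, while Snrpd1 is highest in both groups by its deposited length of 837 bases.

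Of the members particular to the U1 and U2 particles, Snrpa and Snrpc of U1 had higher mean values in AMH libraries. Snrpb2 and Snrpa1 of U2 had lower ones under TMM scaling. Snrnp70, a U1 protein gene that the symbol rule leaves out, had a negative fold change under TMM scaling, unlike Snrpa and Snrpc. It had 167, 185 and 130 CPM in controls and 92.4, 114 and 182 CPM in AMH libraries, with overlap. Its fold change was -0.31 ± 0.28 (edgeR adjusted p = 0.395), and it was chosen after its values were seen. With oocyte-list scaling 0 of 19 U1 and U2 factors outside the rule, Snrnp70 among them, had a negative fold change. Snrpc, the C protein of U1, which contacts the 5′ splice site (17, 27838150 to 27851968), had 2.26, 1.40 and 3.49 CPM in controls and 6.53, 6.02 and 5.57 CPM in AMH libraries. It was the member of lowest FPKM, the groups did not overlap, and its fold change was 1.34 ± 0.38 (edgeR adjusted p = 0.116). Snrpa, the A protein of U1, had 20.5 to 27.0 CPM in controls and 29.5 to 40.5 CPM in AMH libraries, with 0.61 ± 0.22 and no overlap. Snrpb2, the B″ protein of U2 (2, 143063039 to 143072853), had 88.3, 79.0 and 75.6 CPM in controls and 43.4, 48.4 and 77.3 CPM in AMH libraries. AMH 3 lay inside the control range, and the fold change of -0.52 ± 0.25 had an adjusted p of 0.156 by edgeR. Without AMH 3 its adjusted p was 0.0426. Snrpa1, the A′ protein of U2 and partner of B″, had -0.35 ± 0.19, with overlapping groups. With oocyte-list scaling both U2 genes turned positive, at 0.15 and 0.39.

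**Figure D3:**
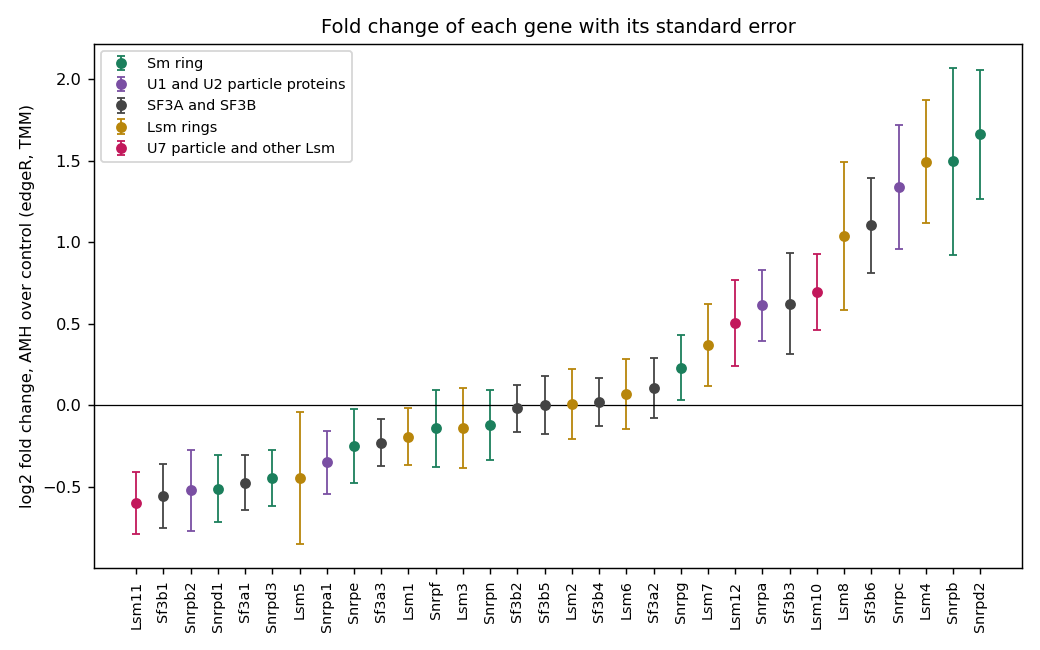
The log2 fold change of each gene, AMH over control, in ascending order with its standard error as the bar and the colour giving its role. Values run from -0.60 for Lsm11 to 1.66 for Snrpd2, and each role has genes on both sides of 0, while with oocyte-list scaling all 32 are positive.

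The SF3A and SF3B genes split in the same manner, with Sf3b6 and Sf3b3 higher, Sf3b1 and Sf3a1 lower under TMM scaling and 4 genes nearly level. Sf3b6, which lies close to the branch point (12, 4817544 to 4827659), had 11.1, 7.23 and 14.4 CPM in controls and 24.5, 24.1 and 21.8 CPM in AMH libraries. The groups did not overlap, and the fold change was 1.11 ± 0.29 (edgeR adjusted p = 0.116). Sf3b1, the large scaffold of SF3B and the most abundant member by CPM (1, 54985169 to 55027481), had 657, 659 and 669 CPM in controls and 361, 431 and 557 CPM in AMH libraries. The SD of Sf3b1 was 6.45 CPM over controls and 99.0 CPM over AMH libraries (n = 3 each), with AMH 3 nearest the controls. The fold change was -0.56 ± 0.20 (adjusted p = 0.118), and 0.14 with oocyte-list scaling.

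Sf3b3, the other large SF3B subunit (8, 110810239 to 110846787), is given in full because control 3 and AMH 3 crossed, a choice made after its values were seen. It had 63.8, 61.4 and 115 CPM in controls and 135, 145 and 90.9 CPM in AMH libraries. Control 3 lay above AMH 3, and the fold change of 0.62 ± 0.31 (edgeR adjusted p = 0.170) was 0.97 without control 3 (adjusted p = 0.0280) and 0.06 with the cumulus covariate. The FPKM ratio of Sf3b1 to Sf3b3 was 9.90, 10.3 and 5.58 for controls 1, 2 and 3, against 2.58, 2.86 and 5.88 for AMH 1, 2 and 3. Control 3 and AMH 3 thus had nearly the same ratio, midway between the other pairs. Their summed cumulus marker CPM was 6895 and 6597, with 2560 and 1422 for controls 1 and 2 below and 8652 and 7734 for AMH 1 and 2 above them, and the part of those cells in the ratio was not tested.

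Sf3a1 had -0.48 ± 0.17, with 162 to 192 CPM in controls and 110 to 145 CPM in AMH libraries and no overlap. Sf3a3, which binds Sf3a1 within SF3A, had -0.23 ± 0.14, also without overlap, at 85.5 to 91.6 and 72.0 to 82.3 CPM. The remaining genes lay close to 0: Sf3b2 had -0.02 ± 0.14, Sf3b5 0.00 ± 0.18, Sf3b4 0.02 ± 0.15 and Sf3a2 0.10 ± 0.18. Sf3a2 varied little, at 18.4 to 19.0 CPM in controls and 19.4 to 20.6 CPM in AMH libraries, so its groups were apart in spite of the small difference. Summed FPKM of the SF3 genes was 216 ± 2.39 in control and 196 ± 5.57 in AMH libraries (SD, n = 3 each), with no overlap. The deposited length of Sf3b2 is 3231 bases, where its exons in GENCODE M21 cover 6822. With the longer length the sums were 190.0 ± 1.85 and 171 ± 4.36, again without overlap. The direction of these sums is relative to the scaling of the deposited FPKM. Its effective sizes were 0.924 to 0.997 times the count total for controls and 1.05 to 1.18 times for AMH libraries. With oocyte-list scaling all 32 members had positive fold changes.

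Among the Lsm ring genes Lsm4 and Lsm8 had higher values in AMH libraries and the other 6 differed by less than 0.5. Lsm4, a subunit of both rings (8, 70673248 to 70678752), had 11.6, 6.14 and 17.4 CPM in controls and 34.7, 32.6 and 31.9 CPM in AMH libraries. The AMH libraries lay close together and well above the highest control, and the fold change was 1.496 ± 0.38 (edgeR adjusted p = 0.116). Lsm8, which marks the nuclear ring on U6, had 7.58, 5.03 and 16.9 CPM in controls and 22.7, 19.9 and 17.9 CPM in AMH libraries, with control 3 close to AMH 3. Its fold change of 1.04 ± 0.45 had an adjusted p of 0.141, which was 0.0165 without control 3, and the fold change was 0.15 with the cumulus covariate.

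Lsm1, which marks the cytoplasmic decay ring, had 41.8 to 50.3 CPM in controls and 35.3 to 43.4 CPM in AMH libraries, with -0.19 ± 0.17. The FPKM ratio of Lsm1 to Lsm8 was 9.01, 12.6 and 3.35 for controls 1, 2 and 3, against 2.54, 2.40 and 3.28 for AMH 1, 2 and 3. Controls 1 and 2 stood above the other 4 libraries, with control 3 next to AMH 3. Lsm5 (6, 56701063 to 56704710), the member with the fewest counts, had 2.22, 3.69 and 2.08 CPM in controls and 1.33, 2.76 and 1.77 CPM in AMH libraries, with overlap and -0.45 ± 0.41. The other ring subunits overlapped as well, with -0.14 ± 0.25 for Lsm3, 0.01 ± 0.22 for Lsm2, 0.07 ± 0.22 for Lsm6 and 0.37 ± 0.25 for Lsm7. Lsm7 had 11.6 CPM in control 3, below the 15.4 to 21.6 CPM of the other 5 libraries.

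The partners of the U7 particle had opposite directions. Lsm10 (4, 126096623 to 126098584), which takes the place of SmD1 in the U7 ring, had 12.1, 14.1 and 12.4 CPM in controls and 25.7, 19.4 and 17.5 CPM in AMH libraries. Lsm11 (11, 45928269 to 45944935), which takes the place of SmD2, had 117, 119 and 115 CPM in controls and 61.4, 75.7 and 93.7 CPM in AMH libraries. Neither gene overlapped between groups, and the controls of both agreed closely. The fold changes were 0.70 ± 0.23 for Lsm10 and -0.60 ± 0.19 for Lsm11, the lowest of the 32 genes (edgeR adjusted p = 0.116 for each). With oocyte-list scaling Lsm11 had 0.11. The FPKM ratio of Lsm11 to Lsm10 does not depend on the scaling of libraries. It was 1.41, 1.23 and 1.36 for controls 1, 2 and 3, against 0.349, 0.571 and 0.784 for AMH 1, 2 and 3, so every AMH library lay below every control. Control 3 lay here with the other controls. The cumulus markers summed to 6895 CPM for control 3 and 6597 CPM for AMH 3, and the part of those cells in this ratio was not tested. With the cumulus covariate the fold changes were 0.74 and -0.52. That edgeR fit called 0 of 32 members, and the adjusted p of Lsm11 was 0.674. Lsm12, which belongs to none of these rings, had 0.50 ± 0.26, with 5.86 to 7.97 CPM in controls and 7.79 to 10.4 CPM in AMH libraries.

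**Figure D4:**
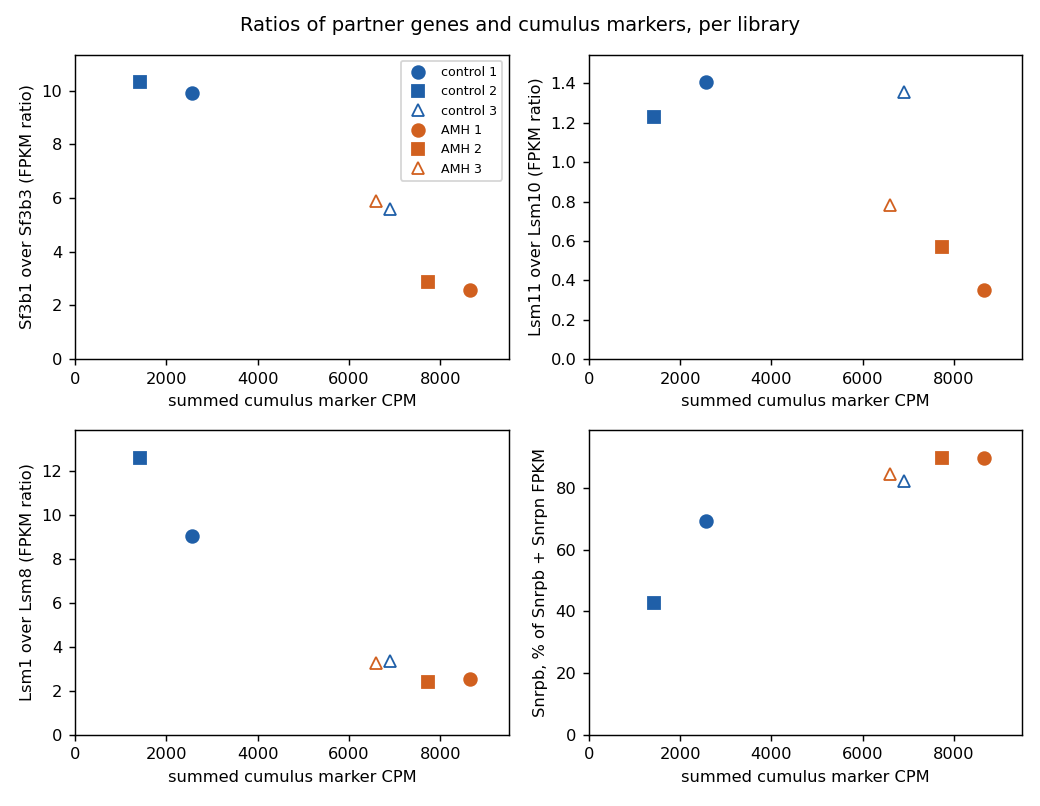
Ratios of partner genes in each library (vertical axes from 0) against summed cumulus and granulosa marker CPM, with open triangles for control 3 and AMH 3. Those triangles lie together for Sf3b1 over Sf3b3 and for Lsm1 over Lsm8, while for Lsm11 over Lsm10 control 3 stays with the controls, at 1.36 against 0.784 for AMH 3.

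Under TMM scaling members of low level tended to have higher and members of high level lower values in AMH libraries, as genes did in the whole table. With library size only 24 of the 32 members had positive fold changes, and with oocyte-list scaling all 32. Of the 16 members with a mean under 30 CPM 12 had a positive fold change, and of the 16 with 30 CPM or more 5 did. Between 5 and 30 CPM the median was 0.44 over 14 members and 0.40 over 5372 genes tested. From 100 CPM up it was -0.45 over 5 members and -0.56 over 2128 genes. In that top range all AMH libraries lay below all controls for 3 of 5 members, beside 60.3% of all genes of that level. Across the 32 members the fold change and mean log2 CPM had a Pearson r of -0.40 and a Spearman rho of -0.48, and across all 18868 genes -0.18 and -0.14, over genes that share libraries. Gene length, from 792 bases for Lsm5 to 11370 bases for Sf3b1, had a rho of -0.13 with the fold change over the members.

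**Figure D5:**
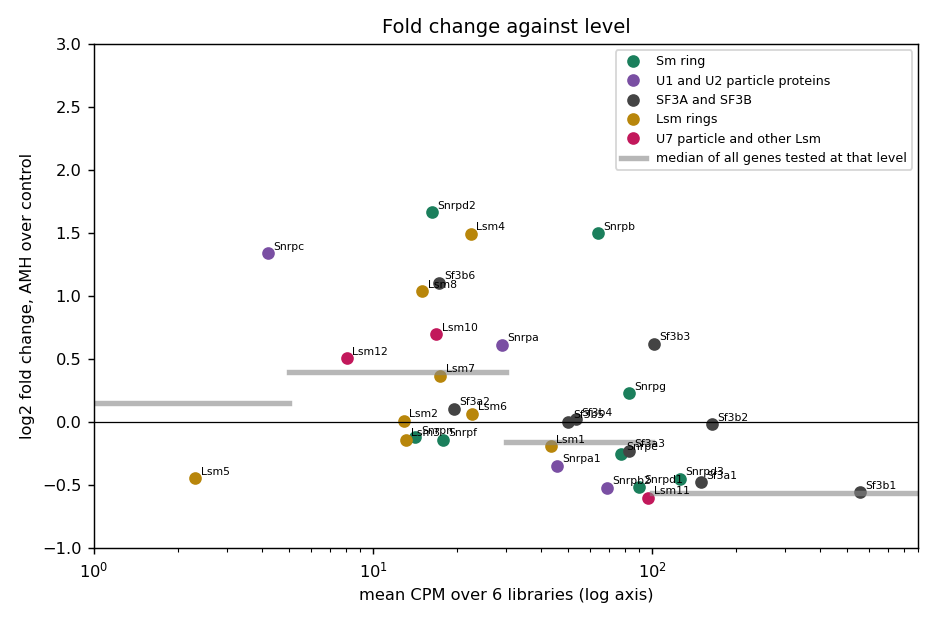
The log2 fold change of each member against its mean CPM over 6 libraries (log axis), coloured by role, with grey bars at the median of all genes tested in 4 ranges of level. Snrpd2, Lsm4, Snrpb and Snrpc lie above the bar of their range, while under TMM scaling Sf3b1, Sf3a1 and Snrpd3 lie near the bar of the highest range.

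In the order of levels per length, deposited values of controls ran from 121 FPKM for Snrpd1 to 0.349 FPKM for Snrpc. Below Snrpd1 came Snrpe (58.9 ± 14.3), Sf3b1 (55.8 ± 0.169), Sf3b2 (48.8 ± 2.48), Snrpg (46.4 ± 10.8) and Snrpd3 (40.5 ± 1.99, SD, n = 3 each). Neighbours in this order lay within their combined SD in 22 of 31 pairs, so Snrpe and Sf3b1 could not be ordered. The places of Snrpd1 and Sf3b2 hold only for their deposited lengths, and with GENCODE lengths they moved from 1 to 3 and from 4 to 10, at 49.4 and 23.1 FPKM. At the low end Snrpd2, Lsm12 and Lsm8 lay within their spread of each other, at 2.85, 2.68 and 2.24 FPKM. The order in AMH libraries had a Spearman rho of 0.92 with that in controls, a description over 32 genes. Snrpb had 16.2 ± 11.3 FPKM over controls and 46.6 ± 11.2 FPKM in AMH libraries, and Lsm4 10.8 ± 5.08 and 31.0 ± 2.12 FPKM.

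Some counts of this family are uncertain. Coding sequences of 16 of the 32 members had a copy elsewhere in the annotation with at least 90% identity over at least 150 bases, and the copy with most counts was a processed pseudogene for all but Lsm6. Gm10146, identical to Lsm7 where aligned, held 2404 counts over the 6 libraries against 7319 for Lsm7, and Gm8186, identical to Snrpg, held 2999 against 34594. Copies of Lsm5 held 42.8% as many counts as Lsm5, while Snrpb, Lsm4, Sf3b6, Sf3b1, Lsm10 and Lsm11 had 0 copies by this measure and Snrpd2 had 2, with 33 counts in all. A stretch with 92.0% identity to Lsm6 lies in a transcript of Zfp410. Exons of 10 members overlap another gene, among them 65.9% of the exon bases of Snrpf, which lie against Ccdc38 on the other strand, and parts of Snrpn that Snurf and Gm38393 share. For Sf3a2 16.1% of the exon bases lie against Plekhj1 on the other strand, which held 23767 counts against 8156 for Sf3a2. The sources used here do not say whether counting used strand.

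The promoter windows of 4 members are printed to show the start regions of genes that lay at opposite ends of the fold changes, Snrpd2 and Sf3b6 with higher and Lsm11 and Sf3b1 with lower values in AMH libraries. Each window holds 250 bases before and 50 after the RefSeq start on GRCm38.p6, read 5′ to 3′ on the gene's strand, at chr7:19149588-19149887 (+), chr12:4817358-4817657 (+), chr11:45944886-45945185 (-) and chr1:55027429-55027728 (-). Capitals mark the ETS motif CCGGAAG and the GC box GGGCGG on either strand.
Snrpd2: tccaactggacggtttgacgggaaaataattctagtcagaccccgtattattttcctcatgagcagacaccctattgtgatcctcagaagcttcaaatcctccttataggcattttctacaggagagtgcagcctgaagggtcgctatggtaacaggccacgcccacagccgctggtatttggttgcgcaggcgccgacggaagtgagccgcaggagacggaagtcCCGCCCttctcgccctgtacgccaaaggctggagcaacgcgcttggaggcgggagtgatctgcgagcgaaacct
Sf3b6: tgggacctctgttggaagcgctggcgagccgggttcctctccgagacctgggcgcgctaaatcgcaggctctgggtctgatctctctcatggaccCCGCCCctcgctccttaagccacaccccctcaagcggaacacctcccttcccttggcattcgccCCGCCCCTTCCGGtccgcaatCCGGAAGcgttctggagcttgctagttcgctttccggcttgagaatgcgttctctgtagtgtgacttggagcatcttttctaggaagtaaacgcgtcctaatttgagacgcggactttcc
Lsm11: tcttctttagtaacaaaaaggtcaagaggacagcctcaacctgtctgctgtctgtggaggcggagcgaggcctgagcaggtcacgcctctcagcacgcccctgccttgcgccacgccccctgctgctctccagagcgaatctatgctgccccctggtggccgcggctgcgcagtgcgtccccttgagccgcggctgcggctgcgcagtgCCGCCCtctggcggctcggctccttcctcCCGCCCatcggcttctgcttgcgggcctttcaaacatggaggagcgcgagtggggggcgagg
Sf3b1: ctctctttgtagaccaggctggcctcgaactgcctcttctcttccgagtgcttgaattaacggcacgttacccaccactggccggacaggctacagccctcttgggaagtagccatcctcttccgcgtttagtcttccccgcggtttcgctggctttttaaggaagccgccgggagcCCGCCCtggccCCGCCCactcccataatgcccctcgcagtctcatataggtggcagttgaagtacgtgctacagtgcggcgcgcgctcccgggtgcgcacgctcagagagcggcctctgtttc
The ETS motif occurred 2 times in the Sf3b6 window and 0 times in the other 3, and the GC box 1 time in the Snrpd2 window and 2 times in each of the others. In Sf3b6 an ETS match directly follows a GC box, with no shared base. Windows were found for 25 of the 32 members, and not for Lsm1, Lsm12, Lsm4, Sf3b4, Sf3b5, Snrpb and Snrpd1. Over the 32 windows of those 25 genes the ETS motif was in 37.5%, beside 8.86% of all 32851 windows, and the GC box in 59.4%, beside 35.7%. The TATA motif TATAAA was in 9.38% of member windows and 13.6% of all and CCAAT in 34.4% and 37.4%. Motifs were sought on both strands and may overlap. The ETS windows belong to 11 genes, of which Snrpe, Sf3a1, Sf3a3, Sf3b2, Snrpb2 and Lsm5 had negative and Sf3b6, Snrpc, Sf3b3, Sf3a2 and Snrpg positive fold changes. Such matches describe letters in these windows and not bound sites.

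Other splicing genes, 149 tested genes in 8 groups, were split in the same way under TMM scaling, which the counts and levels below use. At an unadjusted p under 0.05 32 were higher and 30 lower in AMH libraries (21.5% and 20.1%, beside 20.2% and 17.3% of all genes). EdgeR's adjusted p called 0, and the median was -0.07. In 40 every AMH library lay above every control (26.8%, beside 26.9% of all genes) and in 35 below (23.5%, beside 23.3%). With oocyte-list scaling the median of each group was positive, from 0.12 to 1.03, and at most 3 genes of a group were negative. Among 19 other U1 and U2 factors 3 were higher and 4 lower at that p (15.8% and 21.1%). Tia1, which helps U1 bind weak 5′ splice sites, averaged 2.49 ± 1.75 CPM over controls and 9.997 ± 0.184 CPM over AMH libraries (SD, n = 3 each).

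Of 20 U4/U6.U5 proteins 3 were higher and 4 lower (15% and 20%, beside 20.2% and 17.3% of all genes). Txnl4a, a small U5 protein, had 7.21 ± 3.55 and 18.3 ± 3.73 CPM. Prpf6, a bridge between U5 and U4/U6, had 424 ± 7.70 and 292 ± 74.1 CPM. Of 10 proteins of the minor U11/U12 spliceosome 4 were higher and 2 lower (40% and 20%, beside the same shares of all genes). Of these 10 genes 7 lay under 30 CPM. Zmat5 had 3.53 ± 1.44 and 9.63 ± 2.29 CPM and Zcrb1 62.2 ± 16.6 and 41.5 ± 4.44 CPM. Of 25 Prp19 complex and step factors 4 were higher and 6 lower (16% and 24%, beside 20.2% and 17.3% of all genes). Bud31 had 8.73 ± 1.04 and 16.4 ± 3.14 CPM, and Slu7, a second-step factor, 135 ± 10.1 and 97.5 ± 2.70 CPM.

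The next list covers the SMN complex, which loads Sm proteins onto snRNAs, and the Prmt5 enzymes that methylate them. It also holds Coil, Tgs1, Phax and Snupn, which belong to neither. Of its 17 genes 6 were higher, Coil and Tgs1 among them, and 3 lower (35.3% and 17.6%, beside 20.2% and 17.3% of all genes). The median of the list was 0.30. Of these 17 genes 10 lay under 30 CPM. Gemin7, an SMN complex subunit, had 20.5 ± 0.649 and 37.4 ± 7.38 CPM, and Riok1, a Prmt5 partner, 737 ± 69.4 and 437 ± 92.2 CPM. Of 21 SR proteins and their kinases 4 were higher and 2 lower (19.0% and 9.52%, beside 20.2% and 17.3% of all genes). Srsf6 had 33.7 ± 11.3 and 65.9 ± 15.9 CPM and the kinase Srpk2 178 ± 9.96 and 118 ± 26.8 CPM. Of 19 exon junction and export genes 6 were higher and 2 lower (31.6% and 10.5%, beside 20.2% and 17.3% of all genes). The export receptor Nxf1 had 28.4 ± 10.1 and 64.4 ± 14.0 CPM and Pnn 139 ± 20.8 and 92.1 ± 12.5 CPM. A list of 18 genes, most of mRNA decay and storage beside the Lsm rings, also holds Slbp and Zfp473 of histone mRNA processing. The nuclear nucleases Xrn2 and Exosc10 are in it too, and so is Naa38. Of the 18 genes 2 were higher, Naa38 among them, and 7 lower, Slbp among them. These were 11.1% and 38.9%, beside 20.2% and 17.3% of all genes. The median was -0.59 under TMM and 0.12 under oocyte-list scaling. All AMH libraries lay below all controls for 9 of these 18 genes, beside 23.3% of all genes. Of the 18 genes 8 had 100 CPM or more, and 5 of those 8 lay below with a median of -0.67, beside 60.3% and -0.56 for all genes of that level. Dcp2, the decapping enzyme, had 90.3 ± 11.6 and 54.9 ± 7.22 CPM, and Naa38, an Lsm-fold subunit of an acetyltransferase, 3.76 ± 0.834 and 11.3 ± 0.805 CPM (SD, n = 3 each).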

How the data were processed

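Deposited were counts per gene, whole numbers, and FPKM, both made by the authors with 1 column per library. The submitters' processing notes name HISAT2 2.0.5, featureCounts 1.5.0-p3, DESeq2 1.20.0, GRCm38 and mm10, without a role for each, and the strand setting is not stated. FPKM in the deposited table equals the count over gene length and an effective size of 0.924 to 1.18 times the library's count total. Per the labels' protocols libraries came from a SMART v4 kit with poly-T beads. Coordinates are those of the count table, and 30 of 32 members have the same positions and length in GENCODE M21. The exceptions are Snrpd1 (837 bases deposited, 2052 in GENCODE) and Sf3b2 (3231 and 6822), whose FPKM depend on the length chosen; levels with GENCODE lengths were added after seeing the data.

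The counts were fitted with edgeR 4.0.16 (R 4.3.3), TMM scaling, its default filter and group as the only term, and SE is the log2 fold change over the root of the F statistic. DESeq2 1.42.0, limma 3.58.1 (voom, or log2(FPKM + 1) where 3 or more libraries passed 1 FPKM), other scalings and filters, a replicate block, a cumulus covariate and left-out libraries were alternatives. The members, roles and lists were chosen with earlier results of these data known. Members described in full were the highest and lowest fold change in each role, the 3 highest by FPKM and the 5 of smallest p, and partner genes those of smallest p in each direction of their list, of which 1 is not reported here. Copies were sought with BLAST in GENCODE M21 transcripts, and promoter windows are RefSeq's. With 3 libraries a group an exact permutation test of a single value cannot go below p = 0.1. The tests were tried on simulated counts.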

Additional observations from a re-analysis of the deposited data

How the results depend on the processing

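EdgeR called 0 genes and 0 members under each scaling and filter tried, with the cumulus covariate, and without control 1, control 2, AMH 1 or AMH 2, or control 2 and AMH 1 together. DESeq2 called 4002 genes and 6 members, and limma-voom with quality weights 14101 and 21. Leaving out 1 library gave 0 to 7513 genes and 0 to 8 members, the most without control 3, with 1607 genes and 3 members without AMH 3. Without control 3 and AMH 3 it was 9885 genes and 17 members. The median of the members was 0.28 by library size, -0.23 by upper quartiles, 0.76 by the oocyte list and 0.091 with the covariate, and over all genes 0.26, -0.23, 0.73 and -0.0023. It ran from -0.10 to 0.039 without 1 library. Members with all AMH libraries above all controls numbered 16 by library size (50% of members, 33.1% of all genes), 23 by the oocyte list (71.9% and 40.1%) and 9 to 12 without 1 library (28.1% to 37.5%, and 27.7% to 39.2% of all genes). Members with all below numbered 0 by the oocyte list (0.774% of all genes), 13 without control 3 and AMH 3 (40.6% and 41.4%) and 5 to 12 without 1 library, with 12 without control 3 (37.5% and 35.1%) and 10 without AMH 3 (31.2% and 34.5%). The median fold change of the shortest of 10 length groups less that of the longest was -0.043, and -0.087 to 0.12 without 1 library. The highest control level of a member over the lowest was 347 by deposited and 169 by GENCODE lengths, chosen after seeing the data. The causes were not tested. Replicate numbers are not stated to pair libraries, and deviations of same-numbered libraries correlated at 0.060, -0.10 and -0.25. With the replicate block 0 genes and 0 members were called, the median of the members was 0.0079, and 6 members were higher and 1 lower at an unadjusted p under 0.05, beside 17.6% and 7.11% of all genes.

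Of 638 fold changes of single members under the alternatives 527 kept direction and side of the threshold, 55 passed it and 56 changed sign. With oocyte-list scaling Sf3b1 had 0.14, Sf3b2 0.71, Sf3a1 0.25, Snrpd3 0.27, Lsm11 0.11, Snrpd1 0.20, Sf3a3 0.53, Snrpe 0.49, Snrpb2 0.15, Snrpa1 0.39, Lsm1 0.55, Snrpf 0.57, Snrpn 0.62, Lsm3 0.65 and Lsm5 0.36. With library size alone Sf3b2 had 0.25, Sf3a3 0.051, Snrpe 0.019, Lsm1 0.080, Snrpf 0.12, Snrpn 0.15 and Lsm3 0.15. With at least 5 CPM in 3 libraries Sf3b2 had 0.020. With upper-quartile scaling Snrpg had -0.010, Sf3b4 -0.20, Sf3b5 -0.23, Lsm6 -0.14, Sf3a2 -0.12 and Lsm2 -0.23. With the cumulus covariate Snrpe had 0.20, Sf3b4 -0.00071, Snrpf 0.087, Lsm3 0.21 and Lsm5 0.065. With quality weights Sf3b4 had -0.043, Sf3b5 -0.11, Lsm7 -0.0063 and Lsm2 -0.045. Without control 2 and AMH 1 Sf3b4 had -0.045, Snrpf 0.038, Lsm2 -0.014 and Lsm5 0.075. Without control 3 and AMH 3 Sf3b5 had -0.14. Without 1 library in turn the values crossing 0 ran, by gene, Sf3b2 -0.10 to 0.030, Sf3b4 -0.031 to 0.048, Sf3b5 -0.10 to 0.091, Lsm6 -0.11 to 0.14 and Lsm2 -0.084 to 0.065.

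Depth limits Snrpc and Lsm5, at 90 to 530 and 108 to 237 counts a library, and 3 libraries a group limit all tests.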
